A study of Drosophila melanogaster with 8 samples.

Results

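Testes of Tailor/Dis3L2 double mutant flies were compared with testes of Dis3L2 mutant flies, 2 libraries a side, which are 4 of the 8 libraries of a Drosophila melanogaster series. The double mutant carries mutations in both genes, and the Dis3L2 mutant carries the Dis3L2 mutation with no labelled mutation of Tailor. The comparison therefore asks how testis RNA differs with the Tailor mutation when Dis3L2 is mutated in both groups. A Tailor mutant and the strain w1118, also 2 libraries each, give the same contrast without the Dis3L2 mutation. All 4 groups were dissected from flies of 5 days, and each group's libraries came from separate dissections. The labels name no alleles, parent strains or crosses.

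Tailor is a terminal uridylyltransferase, an enzyme that adds uridines to the 3′ ends of RNAs. Dis3L2 is a cytoplasmic 3′-to-5′ exonuclease that prefers RNAs ending in uridines, and in Drosophila the proteins act together as a complex for uridylation and decay. Small structured noncoding RNAs, such as small nuclear RNAs, transfer RNAs and other transcripts of RNA polymerase III, are among the known substrates of this pathway.

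Total RNA was sequenced as paired reads, and the measurement is the number of reads per annotated gene or transposon insertion. Levels are given as CPM, read counts divided by a scaled library size, and a feature was called where its adjusted p was at most 0.05 (edgeR's quasi-likelihood test, Benjamini-Hochberg adjustment over all 14246 features tested). Total counts were 30059737 and 9781275 in the double mutant and 16904111 and 20125955 in the Dis3L2 mutant, in the order of replicates 1 and 2, which all pairs of values follow. The share of counts in ribosomal RNA was 4.65% and 10.3% in the double mutant, against 24.6% and 1.43% in the Dis3L2 mutant. On the log scale the double mutant libraries correlated at 0.980 with each other and the Dis3L2 mutant libraries at 0.979. Double mutant against Dis3L2 mutant libraries gave 0.929 to 0.953. Testis markers were present in all 4 libraries: the sperm tail gene dj had 1186 and 899 CPM in the double mutant and 899 and 917 CPM in the Dis3L2 mutant. The testis-specific tubulin betaTub85D had 2293 and 2199 CPM in the double mutant and 1632 and 1903 CPM in the Dis3L2 mutant. The germline helicase gene vas was low in all of them, with 5.14 and 8.10 CPM in the double mutant and 7.99 and 5.31 CPM in the Dis3L2 mutant.

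Both targeted genes were read in every library. Tailor (FBgn0037470, 3R:7083225-7086083, minus strand, dm6) had 22.8 and 21.1 CPM in the double mutant, against 96.8 and 95.6 CPM in the Dis3L2 mutant. Its log2 fold change, double mutant over Dis3L2 mutant, was -2.13 ± 0.12 (SE; adjusted p = 0.000383), as the labels require. Dis3l2 (FBgn0035111, 3L:212709-216479, plus strand), mutated in both groups, had 30.7 and 30.8 CPM in the double mutant and 9.99 and 10.6 CPM in the Dis3L2 mutant. It was higher in the double mutant (1.58 ± 0.11, adjusted p = 0.000753). In w1118 it had 115 and 117 CPM, so both mutated groups were below the control strain. These reads cannot tell whether either gene still yields active enzyme.

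Between the double mutant and the Dis3L2 mutant 1289 of 14246 features differed, which is 9.05% (percent called). Of these, 680 rose (4.77% of features tested) and 609 fell (4.27%). They comprised 1180 genes, 628 higher and 552 lower, and 109 transposon insertions, 52 higher and 57 lower. At least a 2-fold change was seen in 872 called features, 436 in each direction, and at least an 8-fold change in 217, of which 119 rose and 98 fell. The median log2 fold change of all features was -0.03. Noncoding RNA genes were called in 15.5% of the 1526 tested, 173 higher and 64 lower. Protein-coding genes were called in 7.75% of 11584, 453 higher and 445 lower. On the X chromosome 51 features rose and 121 fell of 2160 tested, while on 3L 183 rose and 100 fell of 2756. The number called depends on every library: it was 279 without double mutant replicate 1, 259 without double mutant replicate 2, 233 without Dis3L2 mutant replicate 1 and 187 without Dis3L2 mutant replicate 2. Leaving out w1118 replicate 1 or 2 gave 623 and 603, and leaving out Tailor mutant replicate 1 or 2 gave 2834 and 2880. Of the 1289 features, 150 were called whichever of the 8 libraries was left out, 85 higher and 65 lower, and none of the 1289 changed direction. These 150 calls are described below as held. All 1289 had no overlap between the 4 libraries, as had 59.7% of all features tested.

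**Figure D1:**
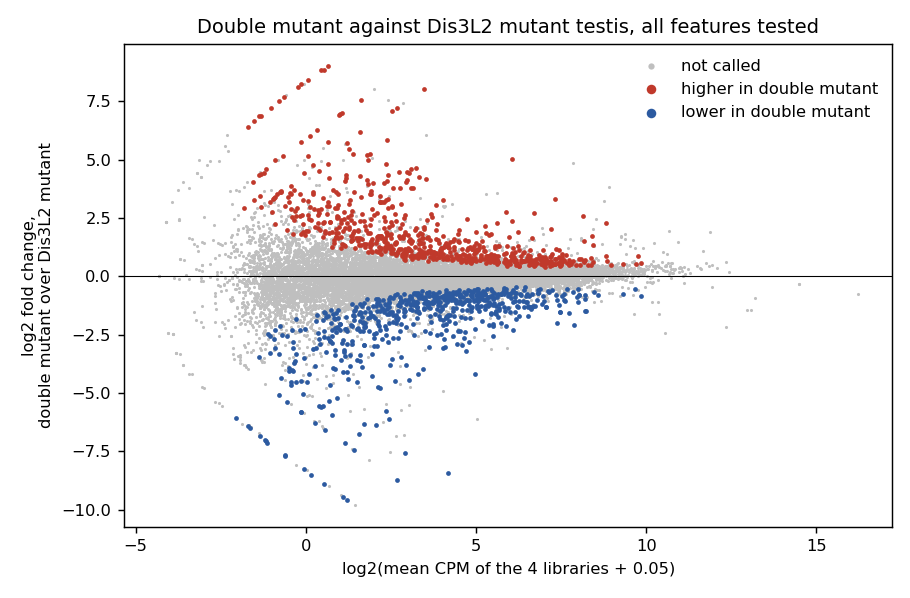
Log2 fold change of the double mutant over the Dis3L2 mutant (y axis) against the log2 of the mean CPM over the 4 libraries plus 0.05 (x axis), with 1 point for each of the 14246 features tested. The 680 called higher are red, the 609 called lower are blue and the rest are grey. The diagonal edges are features with no counts in 1 group.

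Among called genes averaging 5 CPM or more in the higher group, those with the largest rises were almost unread in the Dis3L2 mutant. The long noncoding RNA gene CR46039 (FBgn0267706, 3R:19191981-19193028, plus strand) had 20.6 and 23.1 CPM in the double mutant, against 0.0666 and 0.0856 CPM in the Dis3L2 mutant. These are 865 and 3 counts, a ratio of 271 with an exact 95% interval of 92.6 to 1319, which covers counting error only. The fitted log2 fold change was 8.02 ± 0.30 (adjusted p = 0.000165). Its span overlaps CG31475 on the same strand, whose own log2 fold change was 0.47 (adjusted p = 0.477). The protein-coding gene CG7542 (FBgn0036738, 3L:17549826-17550980, plus strand) had 11.9 and 13.1 CPM in the double mutant and 0.133 and 0.0428 CPM in the Dis3L2 mutant, or 497 against 3 counts. Its ratio was 156 (interval 53.1 to 759; adjusted p = 0.000274). The noncoding gene CR43453 (FBgn0263407, 3R:21465701-21466492, plus strand) had 231 counts in the double mutant and 1 in the Dis3L2 mutant, a ratio of 217 (38.6 to 8625; adjusted p = 0.00158). All 3 were well read in w1118 as well: CR46039 had 7.81 and 7.86 CPM there, CG7542 22.4 and 19.7 CPM, and CR43453 9.94 and 9.71 CPM. The Dis3L2 mutant was thus the low group for these genes. Where so few counts stand in 1 group the fitted value moves with the library left out. For CR43453 it was 7.55, and 9.96 without Dis3L2 mutant replicate 2. For CG7542 it was 7.20, with 8.05 and 6.46 when Dis3L2 mutant replicate 1 or 2 was left out.

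Other large rises repeated this pattern. CG31205 (FBgn0051205, 3R:20731631-20732707, plus strand) had 7.58 and 6.75 CPM in the double mutant, against 0.200 and 0.171 CPM in the Dis3L2 mutant (log2 fold change 5.25 ± 0.40, adjusted p = 0.0011), and 6.64 and 7.90 CPM in w1118. The noncoding gene CR44534 had 5.33 and 4.68 CPM in the double mutant, against 0 and 0.214 CPM in the Dis3L2 mutant (5.24 ± 0.59, adjusted p = 0.00408). AstCC (FBgn0032337, 2L:11083459-11085229, minus strand) encodes a neuropeptide of the allatostatin family and was chosen after its values were seen. It had 14.6 and 15.5 CPM in the double mutant and 0.732 and 0.642 CPM in the Dis3L2 mutant (4.45 ± 0.26, adjusted p = 0.000442), and 17.4 and 18.3 CPM in w1118. CR44534 had 0 counts in Dis3L2 mutant replicate 1, and its fitted value was 4.56 or 9.72 when Dis3L2 mutant replicate 1 or 2 was left out. A different pattern was seen for CR43808, which was low in every group but the double mutant. It had 12.4 and 10.4 CPM in the double mutant and 0.0666 and 0.0856 CPM in the Dis3L2 mutant, 486 against 3 counts and a ratio of 152 (51.9 to 742; adjusted p = 0.00469), with at most 0.351 CPM in any Tailor mutant or w1118 library. CG14410 was likewise read mainly in the double mutant, at 8.41 and 5.19 CPM against 0.266 and 0.171 CPM in the Dis3L2 mutant (4.98 ± 0.64, adjusted p = 0.00652). The calls of CR46039, CG7542, CR43453, CG31205, CR44534 and AstCC held. That of CR43808 ended without either Dis3L2 mutant library (adjusted p = 0.0592 and 0.0672), and that of CG14410 without Dis3L2 mutant replicate 1, Dis3L2 mutant replicate 2 or double mutant replicate 1 (0.0502 to 0.0788).

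Under the same minimum of 5 CPM, the largest falls were of genes almost unread in the double mutant. The noncoding gene CR43451 (FBgn0263405, 3R:19288357-19289296, plus strand) had 0.0321 and 0 CPM in the double mutant, against 11.1 and 14.0 CPM in the Dis3L2 mutant, or 1 against 494 counts. It was lower by a ratio of 525 (93.8 to 20770; adjusted p = 0.000604). No Tailor mutant or w1118 library had more than 0.0501 CPM, so it was read in the Dis3L2 mutant and nowhere else. CG11854 (FBgn0039299, 3R:25242020-25243262, plus strand) also stood apart in the Dis3L2 mutant, with 0.0963 and 0.104 CPM in the double mutant and 35.6 and 36.5 CPM in the Dis3L2 mutant (log2 fold change -8.43 ± 0.42, adjusted p = 0.000332). Every Tailor mutant and w1118 library had 0.291 CPM or less. It overlaps the germline differentiation gene bam on the opposite strand, whose log2 fold change was -0.24 (adjusted p = 0.534). How strand was counted is not given in the sources used here, so reads of overlapping genes cannot be told apart.

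HGTX (FBgn0040318, 3L:14583222-14599540, minus strand), which encodes a homeodomain transcription factor, had 0.449 and 0.623 CPM in the double mutant and 11.8 and 11.4 CPM in the Dis3L2 mutant (-4.50 ± 0.30, adjusted p = 0.000563). It was also low in the Tailor mutant (1.70 and 1.13 CPM) against w1118 (12.6 and 11.8 CPM). CG2736 (FBgn0035090, 2R:24973431-24975341, minus strand), a member of the CD36 family of scavenger receptors, had 1.38 and 1.14 CPM in the double mutant and 18.8 and 21.8 CPM in the Dis3L2 mutant (-3.97 ± 0.18, adjusted p = 0.000274). It had 33.4 CPM in each Tailor mutant library and 47.1 and 48.2 CPM in w1118, so the double mutant was its low group. The same held for CG33773, with 0.128 and 0.312 CPM in the double mutant, against 9.26 and 10.5 CPM in the Dis3L2 mutant (-5.75 ± 0.49, adjusted p = 0.00143) and 17.6 and 15.2 CPM in w1118. CR44735 and CR46108 were also at or near 0 in the double mutant, with 1 against 204 counts (ratio 217, 38.5 to 8601) and 3 against 243 counts (ratio 86.0, 29.1 to 420). CR46108 overlaps CG15506 on the same strand, which was itself lower (-1.69, adjusted p = 0.020). Without double mutant replicate 1, which held the few reads of that group, fitted values moved to -10.96 for CR43451, -9.70 for CR44735 and -9.97 for CR46108, and to -4.96 for CG33773. The calls of CR43451, CG11854, HGTX, CG2736, CG33773, CR44735 and CR46108 held. CR44615 (-6.36 ± 1.46, adjusted p = 0.0385) and CR43928 (-4.78 ± 1.09, adjusted p = 0.0378) were among the 12 largest falls (CR44615 -10.33 without double mutant replicate 1), but their calls ended without any 1 of the 6 libraries of the double mutant, the Dis3L2 mutant and w1118 (0.0766 to 0.196).

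**Figure D2:**
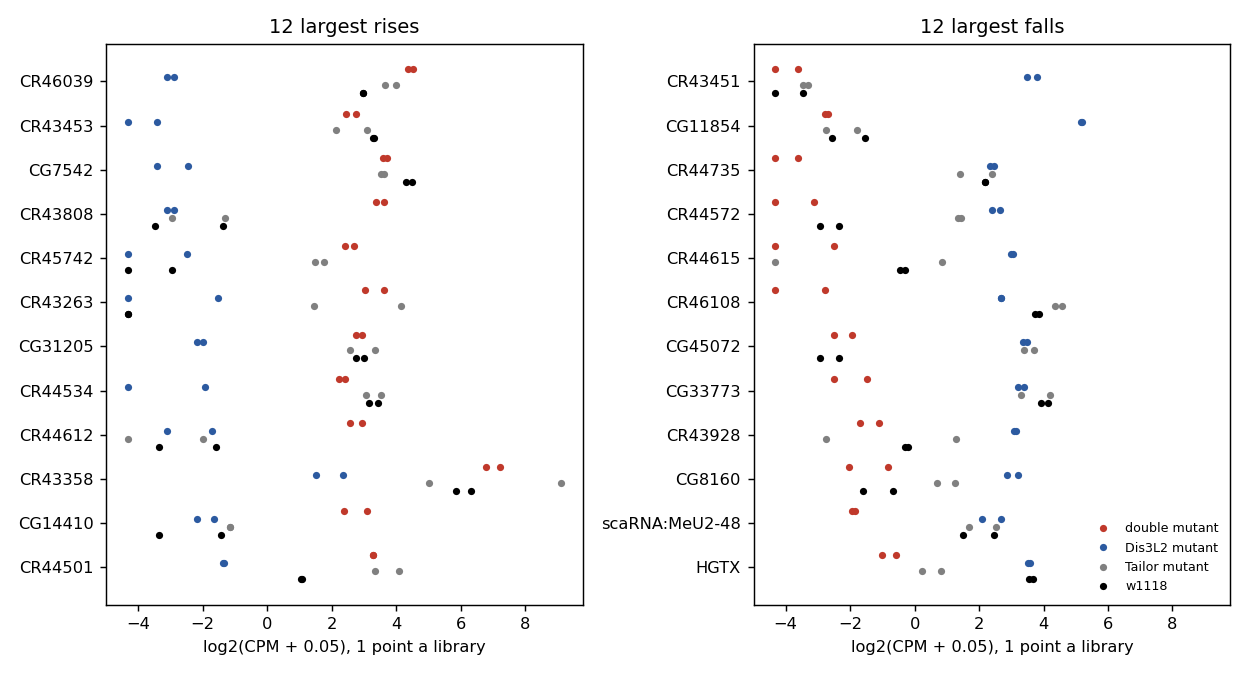
Log2(CPM + 0.05) on the x axis for the 12 genes with the largest rises (left) and the 12 with the largest falls (right) in the double mutant over the Dis3L2 mutant, among called genes averaging 5 CPM or more in the higher group, with 1 point for each of the 8 libraries. Red is the double mutant, blue the Dis3L2 mutant, grey the Tailor mutant and black w1118. Genes were chosen so that the red points lie apart from the blue ones, while grey and black points fall on either side.

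A run of neighbouring genes around Dis3l2 was higher in the double mutant. It extends from Pdk1 to mthl9 on 3L (genes starting in 3L:129450-332309), and its limits were set after the values were seen, so what follows is a description with no test of the run. It holds 33 protein-coding genes read at 5 CPM or more in at least 1 group, Dis3l2 itself left out. All 33 were higher in the double mutant by fitted value, 23 of them called (69.7%), and none was called lower. The median log2 fold change was 0.93, with a range of 0.16 to 2.08, against -0.01 over all 9271 such genes. As a share of w1118, the median level of these genes was 92.7% in the double mutant and 46.7% in the Dis3L2 mutant. By library it was 93.1% and 91.9% in the double mutant, against 51.0% and 44.1% in the Dis3L2 mutant. In the Tailor mutant it was 96.1% of w1118, so the Dis3L2 mutant was the group that stood apart. Among running medians over 15 neighbouring genes on all arms, the highest log2 fold change, 0.98, was centred in this run at mri. The highest elsewhere was 0.50, centred at CREG on 3R. Without each library in turn the median of the run stayed between 0.92 and 1.04, while 7 to 26 of its genes were called.

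The run includes genes of unrelated roles. Pdk1 (FBgn0020386, 3L:129450-145895, plus strand), a kinase of insulin signalling, had 225 and 250 CPM in the double mutant and 113 and 107 CPM in the Dis3L2 mutant (log2 fold change 1.11 ± 0.11, adjusted p = 0.00293), with 227 and 221 CPM in w1118. The Dis3L2 mutant libraries of Pdk1 lay far below all the others. Dic61B, a dynein intermediate chain, had 65.1 and 69.8 CPM in the double mutant and 26.6 and 28.1 CPM in the Dis3L2 mutant (1.30 ± 0.12, adjusted p = 0.00173). The lipid kinase gene fwd, which is needed for cytokinesis in spermatocytes, had 236 and 214 CPM in the double mutant and 103 and 95.0 CPM in the Dis3L2 mutant (1.18 ± 0.15, adjusted p = 0.00546). The tyrosine phosphatase gene Ptpmeg (1.21 ± 0.11), the mitochondrial carrier homolog Mtch (1.13 ± 0.13) and ttm2 (0.97 ± 0.11), which encodes a mitochondrial import subunit, rose by similar amounts. Of the genes named here the calls held, except that of fwd, which ended without Dis3L2 mutant replicate 2 (adjusted p = 0.0663).

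The genes next to the run on either side were not called, but its edge at mthl9 was not sharp. CG13405, the gene before it, had 132 and 153 CPM in the double mutant and 164 and 136 CPM in the Dis3L2 mutant (log2 fold change -0.08 ± 0.17, adjusted p = 0.818), with overlapping libraries. The gene after it, mthl10, had 43.9 and 43.6 CPM in the double mutant and 43.7 and 37.1 CPM in the Dis3L2 mutant (0.12 ± 0.19, adjusted p = 0.737). Beyond mthl10, mth had a log2 fold change of 0.32 (adjusted p = 0.273). On the opposite strand mthl9, mthl10 and mth each overlap Ptpmeg, which was called higher (1.21, adjusted p = 0.00178). At the edge itself, mthl9 was not called (0.74, adjusted p = 0.218). In the Dis3L2 mutant the log2 ratio to w1118 was -0.57 for mth and -0.56 for mthl9, the last gene of the run. Nearer the end of the arm, mthl8 (FBgn0052475, 3L:22428-26308, plus strand), a member of the Methuselah receptor family, had 0 counts in both double mutant libraries, against 3.86 and 5.18 CPM in the Dis3L2 mutant. It was at least 63.4-fold lower (adjusted p = 0.00149) and was chosen after its values were seen. No run of this kind surrounded Tailor: of 30 protein-coding genes of 5 CPM or more within 150 kb of it, CG10055 was called higher, CG1943 was called lower, and the median log2 fold change was 0.11. Differences between the parent chromosomes of the groups cannot be told apart from the mutations.

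**Figure D3:**
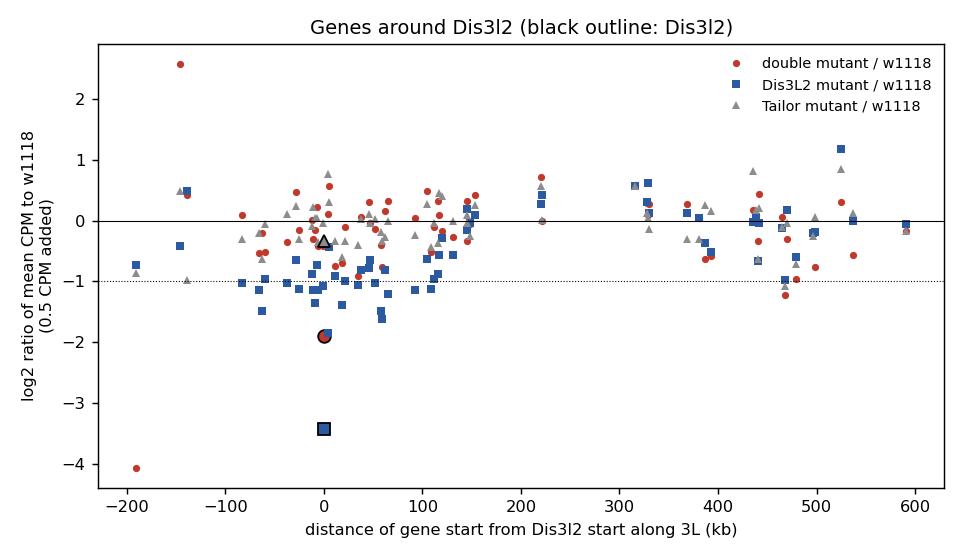
Log2 ratio of mean CPM to w1118, with 0.5 CPM added (y axis), against the distance of each gene's start from the start of Dis3l2 along 3L in kb (x axis), for the double mutant (red circles), the Dis3L2 mutant (blue squares) and the Tailor mutant (grey triangles). The dotted line marks -1 and black outlines mark Dis3l2. Between Pdk1 and mthl9 most blue squares lie near the dotted line while red circles and grey triangles lie around 0.

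Most small nuclear and nucleolar RNAs had fitted values below 0, and those called were all lower in the double mutant, but none of the calls held. Small nucleolar RNAs (snoRNAs) guide modification of ribosomal RNA, those of Cajal bodies (scaRNAs) guide modification of spliceosomal RNAs, and the spliceosomal snRNAs themselves remove introns. Of 133 snoRNAs tested, from 309 in the table, 22 fell and 0 rose (16.5% called, beside 9.05% of all features, and 4.27% of all features lower), with a median log2 fold change of -1.57 and 125 members below 0. Summed over the snoRNAs tested, the double mutant had 1037 and 650 CPM and the Dis3L2 mutant 2379 and 2055 CPM. Both double mutant sums also lay below the Tailor mutant (1986 and 2898 CPM) and w1118 (3153 and 1884 CPM), whose own libraries differed widely. Of 10 scaRNAs tested, 3 fell and 0 rose, with a median of -1.39 and all 10 below 0. Of 29 spliceosomal snRNAs tested, 6 fell and 0 rose, with a median of -0.97 and all 29 below 0. Summed over these snRNAs the double mutant had 2002 and 1606 CPM and the Dis3L2 mutant 3270 and 3454 CPM. By symbol, 15 of 93 snoRNAs labelled Psi (guides for pseudouridylation) were called, as were 0 of 7 labelled Me (guides for methylation) and 7 of the other 33. In the Tailor mutant over w1118 no snoRNA was called and their median was -0.13.

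Among members, snoRNA:Psi18S-1854b had 1.44 and 0.623 CPM in the double mutant, against 16.7 and 9.03 CPM in the Dis3L2 mutant (log2 fold change -3.47 ± 0.49, adjusted p = 0.00915). For scaRNA:MeU2-48 (FBgn0263471, 3L:1498872-1498996, minus strand), whose name places its target in U2, the values were 0.225 and 0.208 CPM in the double mutant and 6.39 and 4.19 CPM in the Dis3L2 mutant (-4.55 ± 0.58, adjusted p = 0.00606). The U2 gene snRNA:U2:34ABb had 192 and 125 CPM in the double mutant and 462 and 426 CPM in the Dis3L2 mutant (-1.49 ± 0.34, adjusted p = 0.0377). The groups did not overlap in any of them, but this was so of every called feature and of 59.7% of all features tested. U2 copies share reads. On the same strand snoRNA:Psi18S-1854b overlaps RpS5a (-0.44, adjusted p = 0.241) and scaRNA:MeU2-48 overlaps hfp (-0.36, adjusted p = 0.384). RNaseP:RNA, the RNA subunit of the enzyme that trims transfer RNA precursors, had 115 and 93.6 CPM in the double mutant and 260 and 226 CPM in the Dis3L2 mutant (-1.22 ± 0.30, adjusted p = 0.0492). It and snRNA:U6:96Ab were the 2 members called, both lower, of 12 RNA polymerase III small RNAs tested. RNaseP:RNA overlaps ATPsynC on the same strand (-0.09, adjusted p = 0.675). Of 297 annotated transfer RNAs, 5 were read deeply enough to test, and 0 were called at the adjusted threshold by edgeR, with 1 at an unadjusted p under 0.05. None of these calls held. Without 1 library in turn, 0 to 61 snoRNAs were called, while the median stayed between -2.28 and -1.28. The call of snRNA:U2:34ABb ended without any 1 of the 4 libraries compared (adjusted p = 0.0909 to 0.212), as did that of RNaseP:RNA (0.14 to 0.247). The value of snoRNA:Psi18S-1854b was -4.35 without double mutant replicate 1. The call of scaRNA:MeU2-48 ended without either double mutant library (0.0526 and 0.0666), and that of snoRNA:Psi18S-1854b without either of these or Dis3L2 mutant replicate 1 (0.0502 to 0.0645). How far libraries of long RNA fragments retain RNAs this short was not tested.

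**Figure D4:**
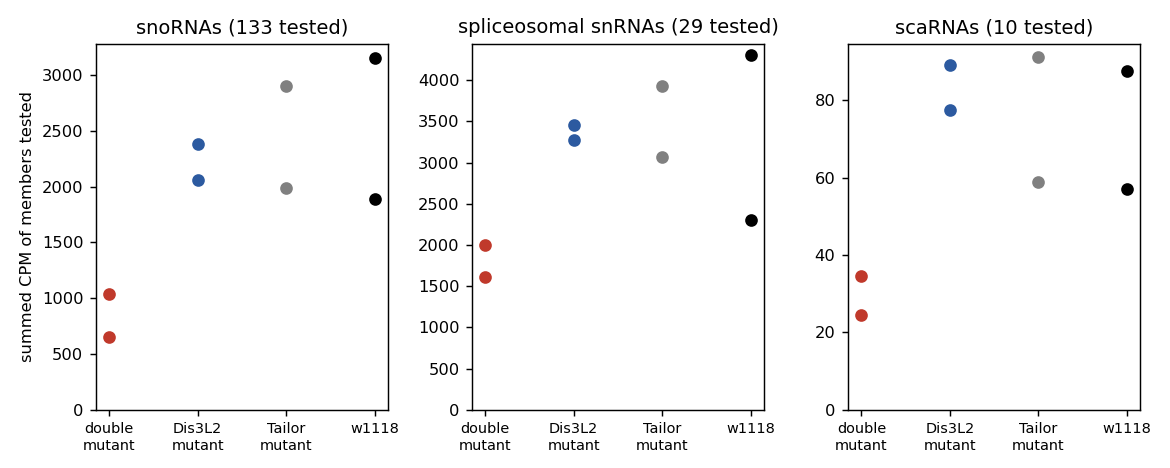
Summed CPM (y axes, from 0) of the 133 snoRNAs, 29 spliceosomal snRNAs and 10 scaRNAs tested, with 1 point for each of the 2 libraries of each group on the x axes. In each panel the red points of the double mutant are the lowest of the 8, below both blue points of the Dis3L2 mutant.

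Transposon insertions were called in both directions. Of 757 insertions tested 52 rose and 57 fell (14.4% called, beside 9.05% of all features). Without 1 library in turn 19 to 170 were called, the fewest without Dis3L2 mutant replicate 2 and the most without either Tailor mutant library. Reads of insertions of a family can be shared between copies, so calls within a family are not independent. Burdock, a retrotransposon with long terminal repeats, was the family with the clearest rise, with 13 of 15 insertions tested called higher and 1 lower, and a median log2 fold change of 4.08. Summed over the family the double mutant had 126 and 93.8 CPM and the Dis3L2 mutant 7.19 and 6.76 CPM, with 49.6 and 39.7 CPM in w1118. A copy on 3R (FBti0019305, 3R:5446016-5452418, plus strand) had 18.6 and 13.9 CPM in the double mutant, against 0.466 and 0.813 CPM in the Dis3L2 mutant (4.61 ± 0.36, adjusted p = 0.00111), and its call held. Between 8 and 14 Burdock copies were called without 1 library in turn.

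The retrotransposon copia went the other way, with 0 of 21 insertions higher and 8 lower, a median of -2.20, and family sums of 43.8 and 33.7 CPM in the double mutant, against 282 and 142 CPM in the Dis3L2 mutant. A copia copy on 3L (FBti0020099, 3L:12957842-12962265, minus strand) had 2.86 and 2.29 CPM in the double mutant and 30.3 and 13.1 CPM in the Dis3L2 mutant (-3.04 ± 0.53, adjusted p = 0.017). That call ended without Dis3L2 mutant replicate 1 or either double mutant library (adjusted p = 0.0904 to 0.117), its value was -2.29 without Dis3L2 mutant replicate 1, and 0 to 16 copia copies were called without 1 library in turn. Of 40 jockey insertions, from a family without terminal repeats, 1 rose and 16 fell, with a median of -1.04. Between 1 and 21 jockey copies were called without 1 library in turn, and 1 without any library of the double mutant or the Dis3L2 mutant. A jockey copy on 3L (FBti0020092, 3L:11329750-11332879, plus strand) had 0.0963 and 0 CPM in the double mutant and 7.52 and 22.3 CPM in the Dis3L2 mutant, 3 against 634 counts (ratio 225, 76.5 to 1092; adjusted p = 0.00334). Its call held, with fitted values of -11.21 without double mutant replicate 1 and -6.62 without Dis3L2 mutant replicate 2, against -7.59 with all libraries. For the telomeric element HeT-A, 4 of 16 insertions rose and 0 fell, and 1 to 4 were called without 1 library in turn, the fewest without Dis3L2 mutant replicate 2. A HeT-A copy on chromosome 4 (FBti0102105, 4:1314342-1320140, minus strand) had 35.3 and 36.5 CPM in the double mutant and 9.72 and 8.39 CPM in the Dis3L2 mutant (1.99 ± 0.16, adjusted p = 0.00123). In the Tailor mutant it had 11.02 and 9.64 CPM, against 24.1 and 26.8 CPM in w1118 (-1.30, adjusted p = 0.0111), the opposite direction.

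Detoxification genes were called in both directions. Of 30 glutathione S-transferases, which conjugate glutathione to reactive compounds, 5 rose and 2 fell (23.3% called, beside 9.05% of all features; median log2 fold change -0.05). Without 1 library in turn 1 to 9 were called, and 1 without any library of the double mutant or the Dis3L2 mutant. GstE8 (FBgn0063492, 2R:18407834-18408955, plus strand) had 30.1 and 29.3 CPM in the double mutant and 2.53 and 3.51 CPM in the Dis3L2 mutant (3.28 ± 0.22, adjusted p = 0.000563), and its call held. GstE10 had 8.64 and 7.79 CPM in the double mutant and 1.53 and 1.28 CPM in the Dis3L2 mutant (2.55 ± 0.37, adjusted p = 0.00963). It overlaps GstE1 on the opposite strand, which also rose (0.95 ± 0.15, adjusted p = 0.0136), and both calls ended without any 1 of the 4 libraries compared (0.0513 to 0.0957). Of 72 cytochrome P450s, a family of oxidising enzymes, 3 rose and 6 fell (12.5% called; median -0.43), and 2 to 20 were called without 1 library in turn. Cyp310a1 had 7.58 and 6.23 CPM in the double mutant and 40.6 and 45.8 CPM in the Dis3L2 mutant (-2.63 ± 0.22, adjusted p = 0.00149). Cyp305a1 had 71.0 and 72.0 CPM in the double mutant and 26.4 and 31.2 CPM in the Dis3L2 mutant (1.31 ± 0.13, adjusted p = 0.00297). Both P450 calls held. Cyp310a1 overlaps MESR3 on the opposite strand, which fell by less (-1.06, adjusted p = 0.027).

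Among immune genes, 2 of 17 antimicrobial peptides rose and 3 fell (29.4% called, beside 9.05% of all features), with a median of -0.94. Without 1 library in turn 0 to 8 were called and the median ranged from -1.45 to -0.13, with 0 called without Dis3L2 mutant replicate 2 or double mutant replicate 2. The cecropin gene CecA1 had 30.4 and 25.1 CPM in the double mutant and 69.3 and 81.0 CPM in the Dis3L2 mutant (log2 fold change -1.43 ± 0.18, adjusted p = 0.00547). The immune-induced peptide gene IM4 rose, with 51.7 and 75.6 CPM in the double mutant and 22.5 and 15.2 CPM in the Dis3L2 mutant (1.76 ± 0.27, adjusted p = 0.0121). Both calls ended without Dis3L2 mutant replicate 2 or double mutant replicate 2, at adjusted p of 0.0503 and 0.0513 for CecA1 and of 0.0744 and 0.0895 for IM4. Chemosensory receptor genes were called in 8 of 59 (13.6%), 4 in each direction, and 0 were called without any 1 of the 4 libraries compared, against up to 13 without a Tailor mutant library. Of these Or22b, an odorant receptor, had 4.11 and 4.05 CPM in the double mutant and 0 and 0.0428 CPM in the Dis3L2 mutant, 167 against 1 counts (ratio 157, 27.8 to 6246; adjusted p = 0.00983), and its call ended without any 1 of the 4 libraries compared (0.0506 to 0.0822), with fitted values of 7.01 and, without Dis3L2 mutant replicate 2, 9.42. The odorant-binding protein gene Obp56i had 49.1 and 44.6 CPM in the double mutant and 16.6 and 18.4 CPM in the Dis3L2 mutant (1.42 ± 0.15, adjusted p = 0.00325), and its call held. The eye pigment transporter gene w, which marks many Drosophila strains and transgenes, had 18.8 and 19.3 CPM in the double mutant and 41.6 and 50.2 CPM in the Dis3L2 mutant (-1.27 ± 0.18, adjusted p = 0.00873). In w1118 it had 5.96 and 6.18 CPM, and its call ended without Dis3L2 mutant replicate 2 or either double mutant library (0.0582 to 0.066).

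Germline genes were called in 2.94% of the sperm chromatin and tail list, 5.0% of the spermatogonial list, 5.88% of the meiotic arrest list, 11.8% of the cup and comet list and 14.3% of the testis proteasome list, beside 9.05% of all features. None of 10 meiotic entry genes and none of 12 Y-linked genes was called by edgeR, with 3 of each at an unadjusted p under 0.05. Of 34 genes for sperm chromatin and tail 1 rose and 0 fell, with a median log2 fold change of 0.32 and 29 members above 0. The one called, Tpl94D, a spermatid protein related to the transition proteins that precede protamines, had 578 and 597 CPM in the double mutant and 321 and 324 CPM in the Dis3L2 mutant (0.87 ± 0.14, adjusted p = 0.0123). Of 17 meiotic arrest genes, which switch on transcription in spermatocytes, topi rose (0.52 ± 0.12, adjusted p = 0.0382) and none fell. Of 20 spermatogonial genes Rbp9, an RNA-binding protein, rose (0.62 ± 0.15, adjusted p = 0.0428) and none fell. Of 17 cup and comet genes, transcribed late in spermatids, r-cup (0.55 ± 0.12, adjusted p = 0.0347) and hale (0.59 ± 0.13, adjusted p = 0.0385) rose. In bulk tissue, fewer cells of a type and less RNA per cell cannot be told apart. Of 14 testis proteasome subunits Rpt4R rose (0.59 ± 0.12, adjusted p = 0.0287) and Prosbeta5R2 fell (-0.75 ± 0.16, adjusted p = 0.0297). The call of Tpl94D ended without any 1 of the 4 libraries compared (0.0655 to 0.0837), and those of the other named germline and proteasome genes without any 1 of the 6 libraries of the double mutant, the Dis3L2 mutant and w1118 (0.0584 to 0.187).

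Genes of RNA decay and silencing were called in 12% of the deadenylation, decapping and 5′-to-3′ list, 12.5% of the mRNA surveillance list and 15.4% of the piRNA list, beside 9.05% of all features. In the microRNA and siRNA machinery list 0 of 12 genes were called by edgeR, with 3 at an unadjusted p under 0.05. None of 12 exosome genes and none of 7 terminal nucleotidyltransferases other than Tailor was called by edgeR, with 1 of each at an unadjusted p under 0.05. Of 25 genes for deadenylation, decapping and 5′-to-3′ decay, 2 rose and 1 fell. The deadenylase Pop2 had 208 and 211 CPM in the double mutant and 148 and 151 CPM in the Dis3L2 mutant (log2 fold change 0.48 ± 0.10, adjusted p = 0.0287). The CCR4-NOT subunit genes Cnot4 and Not11 moved apart, at 0.47 ± 0.11 (adjusted p = 0.0378) and -1.15 ± 0.22 (adjusted p = 0.0239). HBS1, which acts in ribosome rescue, was the 1 of 8 mRNA surveillance genes that rose (0.50 ± 0.10, adjusted p = 0.0279). In the piRNA pathway, which silences transposons in the germline, del (0.69 ± 0.13, adjusted p = 0.0213) and papi (0.55 ± 0.11, adjusted p = 0.0299) were among 3 of 26 genes that rose. The helicase gene spn-E was the 1 that fell, with 36.3 and 26.8 CPM in the double mutant and 59.5 and 55.6 CPM in the Dis3L2 mutant (-0.86 ± 0.18, adjusted p = 0.0298). Each of these calls ended without any 1 of the 4 libraries compared or of w1118, except that Not11 kept its call without double mutant replicate 1. The adjusted p was then 0.0523 to 0.165.

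Genes of the accessory gland, midgut, somatic cyst and hub, and muscle lists were called in 3.23%, 2.63%, 5.56% and 0% of members tested. Those of the ejaculatory duct and bulb and the fat body and yolk lists were called in 14.3% and 23.1%, beside 9.05% of all features. Accessory gland genes, which encode seminal fluid proteins, took 2.71% and 2.01% of counts in the double mutant and 0.627% and 1.12% in the Dis3L2 mutant. Of 31 such genes tested 25 were above 0, with a median log2 fold change of 1.21. At the adjusted threshold 1 was called, while 20 had an unadjusted p under 0.05, and 0 to 23 were called without 1 library in turn, 23 of them without either Tailor mutant library. The called gene was Acp98AB, with 550 and 416 CPM in the double mutant and 51.5 and 110 CPM in the Dis3L2 mutant (2.58 ± 0.57, adjusted p = 0.0337), and its call ended without any 1 of the 6 libraries of the double mutant, the Dis3L2 mutant and w1118 (0.0612 to 0.164). Without Dis3L2 mutant replicate 2 its value was 3.20. With the accessory gland level as a covariate, an alternative chosen after seeing the data, 934 features were called, of which 575 were among the 1289. EbpIII, an ejaculatory bulb protein gene, went the other way, with 36.6 and 35.9 CPM in the double mutant and 89.2 and 122 CPM in the Dis3L2 mutant (-1.55 ± 0.20, adjusted p = 0.00688). That call ended without Dis3L2 mutant replicate 2 or either double mutant library (0.0532 to 0.0638). Of 13 fat body and yolk genes 3 rose and 0 fell, and 0 to 7 were called without 1 library in turn. By fitted value 9 were above 0 and 4 below, the latter including the yolk protein genes Yp1 (-0.39) and Yp2 (-0.37), neither called. The larval storage protein gene Lsp1alpha had 130 counts in the double mutant and 0 in the Dis3L2 mutant, at least 40.8-fold higher (adjusted p = 0.0194). Its call ended without any 1 of the 4 libraries compared or w1118 replicate 2 (0.0501 to 0.109). Of 38 midgut enzymes 0 rose and 1 fell, with 32 below 0, while their summed level was 84.6 and 90.5 CPM in the double mutant and 199 and 102 CPM in the Dis3L2 mutant. Of 18 somatic cyst and hub genes 0 rose and 1, Fas3, fell (-1.07 ± 0.25, adjusted p = 0.0419). Its call ended without either Dis3L2 mutant library, double mutant replicate 2 or either w1118 library (0.0841 to 0.163). None of 24 muscle genes was called by edgeR, with 5 at an unadjusted p under 0.05. The part of these tissues in the results above was not tested.

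The Tailor mutation was also present in the Tailor mutant against w1118, a comparison that shares no library with the one above. On the log scale the Tailor mutant libraries correlated at 0.948 with each other, and those of w1118 at 0.986. Tailor mutant replicate 1 correlated at 0.962 with double mutant replicate 1, and Tailor mutant replicate 2 at 0.961 with w1118 replicate 2. Accessory gland genes took 5.71% and 1.87% of counts in the Tailor mutant. The comparison called 285 features (2.0%), 174 higher (1.22%) and 111 lower (0.779%). The difference between the contrasts, an interaction term, was called for 581 features (4.08%). Called in both contrasts were 107 features, which are 8.3% of those called in the double mutant over the Dis3L2 mutant and 37.5% of those in the Tailor mutant over w1118. Of these 85 moved the same way, 58 higher and 27 lower, and 22 moved opposite ways. Of the 85, 31 lay on 3L and 25 on 3R, which together are 65.9%, beside 43.0% of the features tested. Across all 14246 features the log2 fold changes of the contrasts had a Pearson correlation of 0.10, a description across features that are not independent. The genes named below for both contrasts were in part chosen after their values were seen.

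Tailor itself fell alike in both contrasts, at -2.13 in the double mutant over the Dis3L2 mutant and -2.10 in the Tailor mutant over w1118, with an interaction of -0.03 (adjusted p = 0.946). The noncoding gene CR46043 had 0.706 and 0.727 CPM in the double mutant, against 18.0 and 12.8 CPM in the Dis3L2 mutant, and 0.952 and 0.763 CPM in the Tailor mutant, against 17.3 CPM in each w1118 library. Its log2 fold changes were -4.42 and -4.33 (adjusted p = 0.000483 and 0.000668), and all libraries with the Tailor mutation lay below all libraries without it. It overlaps Nlg4 on the opposite strand, which was not called (0.51, adjusted p = 0.425). CG6974 fell in both as well, with 1.03 and 0.727 CPM in the double mutant, against 9.12 and 12.1 CPM in the Dis3L2 mutant (-3.53 ± 0.27, adjusted p = 0.0011), and by -2.54 in the Tailor mutant over w1118 (adjusted p = 0.00514). GstE8 and Cyp305a1 rose in both, at 1.94 (adjusted p = 0.00606) and 0.94 (adjusted p = 0.0182) in the Tailor mutant over w1118. Gyc89Db, a subunit of an atypical soluble guanylyl cyclase, had 3.05 and 2.91 CPM in the double mutant, against 0.133 and 0.171 CPM in the Dis3L2 mutant (4.22 ± 0.40, adjusted p = 0.00232). It also rose in the Tailor mutant, with 2.30 and 2.05 CPM against 0.145 and 0.201 CPM in w1118 (3.59, adjusted p = 0.00606). CR45742 had 6.48 and 5.30 CPM in the double mutant, against 0 and 0.128 CPM in the Dis3L2 mutant, and 3.36 and 2.77 CPM in the Tailor mutant, against 0 and 0.0802 CPM in w1118. Its fitted value in the double mutant over the Dis3L2 mutant was 6.18 ± 0.76 (adjusted p = 0.00545), and 5.50 or 9.95 when Dis3L2 mutant replicate 1 or 2 was left out.

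Some of the largest interactions were of genes that changed in opposite directions in the contrasts. CG45072 (FBgn0266442, 3R:30122023-30123263, minus strand) had 0.128 and 0.208 CPM in the double mutant, against 10.3 and 11.1 CPM in the Dis3L2 mutant (log2 fold change -6.10 ± 0.34, adjusted p = 0.000383). It had 12.9 and 10.5 CPM in the Tailor mutant, against 0.145 and 0.0802 CPM in w1118 (6.65, adjusted p = 0.000668). It was thus read in each single mutant and nearly unread in the double mutant and in w1118, with an interaction of -12.75 (adjusted p = 0.000197). CR44572 showed the same order, with 2 counts in the double mutant against 224 in the Dis3L2 mutant (ratio lower 119, 32.6 to 989), and 2.65 and 2.49 CPM in the Tailor mutant against 0.145 and 0.0802 CPM in w1118 (interaction -11.22, adjusted p = 0.00121). Its fitted value of -6.75 was -9.83 without double mutant replicate 1. CR45982 (FBgn0267644, 3L:2628041-2629018, plus strand) had 3.72 and 2.49 CPM in the double mutant, against 53.2 and 64.5 CPM in the Dis3L2 mutant (-4.19 ± 0.26, adjusted p = 0.000516), and 5.46 and 3.94 CPM in the Tailor mutant, against 0.582 and 0.562 CPM in w1118. The Dis3L2 mutant was thus its high group. CR45982 overlaps Pxn on the opposite strand, which was not called (0.36, adjusted p = 0.181). Nlg3 (FBgn0083963, 3R:7570281-7639434, minus strand), which encodes the synaptic adhesion protein neuroligin 3, was the reverse, with 8.73 and 7.90 CPM in the double mutant, against 0.799 and 1.03 CPM in the Dis3L2 mutant (3.17 ± 0.24, adjusted p = 0.0011). In the Tailor mutant it had 3.81 and 3.46 CPM, against 9.94 and 8.22 CPM in w1118 (-1.32, adjusted p = 0.0304). The calls named for both contrasts held in the double mutant over the Dis3L2 mutant. The Tailor mutant over w1118 had 47 and 45 features called when w1118 replicate 1 or 2 was left out, and 1109 when Tailor mutant replicate 2 was.

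**Figure D5:**
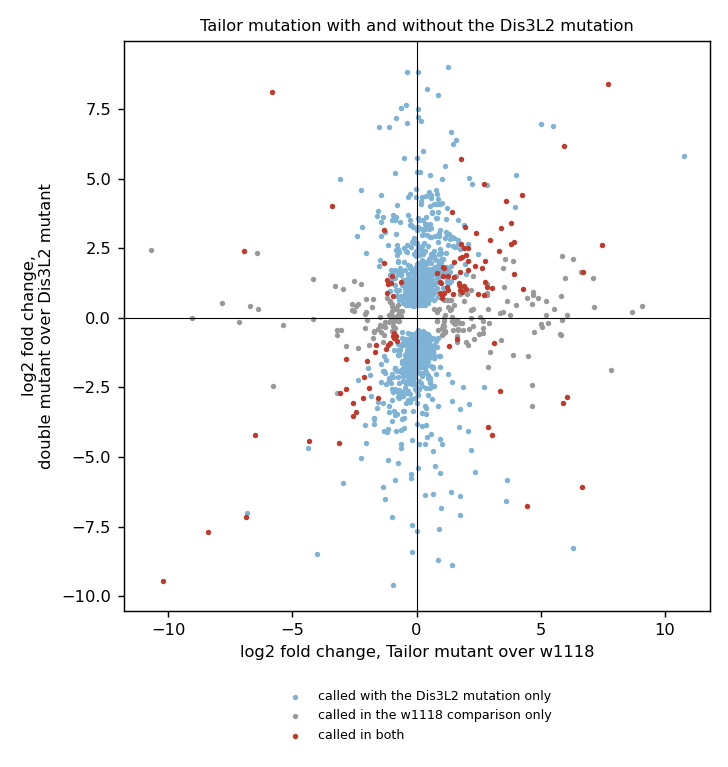
Log2 fold change of the double mutant over the Dis3L2 mutant (y axis) against that of the Tailor mutant over w1118 (x axis), for features called in at least 1 of these contrasts. Red points are the 107 called in both, of which 85 lie in the quadrants of equal sign, and most light blue points, called with the Dis3L2 mutation present, lie near 0 on the x axis.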

How the data were processed

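Trimmomatic 0.36, HISAT2 and the build dm6 are named in the submitters' processing notes. The authors deposited 1 table of raw read counts per feature and library. How reads were counted (tool, annotation, strand, multiple alignments) is not given in the sources used here. The table held 22887 features: 17471 genes, of which 17318 had a match in Ensembl's BDGP6 annotation (dm6 coordinates), and 5416 transposon insertions. Dis3l2 stands in it as CG16940.

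Counts of all 8 libraries, from 9781275 to 30059737 a library, were fitted with edgeR 4.0.16 (R 4.3.3) by quasi-likelihood on group, after TMM scaling and filterByExpr at a minimum count of 10. P-values were adjusted by Benjamini-Hochberg over 14246 features. Contrasts were the double mutant over the Dis3L2 mutant, the Tailor mutant over w1118, and their difference. SE is the size of the log2 fold change over the root of the F statistic. With few counts it can be below counting error. Where a group had 0 counts the bound puts 3 counts over that group, and with 1 to 3 counts the ratio has an exact 95% binomial interval. Reads carry no molecular identifiers, so both cover counting error only.

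On simulated data 54 of 100 2-fold changes and 100 of 100 4-fold changes were recovered, with 13 of 13856 unchanged features called. Members and gene lists were chosen with earlier results of these data known. Named genes are the targeted genes, the 12 largest rises and falls among called genes averaging 5 CPM or more where higher, with no library overlap, 4 insertions each way, up to 3 called members of a list, and the 4 lowest interaction p of each sign. Those of the Pdk1 to mthl9 run and others so marked were chosen after their values were seen. Alternatives were other scalings, filters, DESeq2 1.42.0, a replicate block, the 4 libraries alone, removal of small RNAs or of each library in turn, and a 2-fold minimum.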

Additional observations from a re-analysis of the deposited data

Results flagged for a closer look

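For the results below the difference between groups with and without the Tailor mutation was not the same in flies with the Dis3L2 mutation as in flies without it. Each value is an interaction: the log2 fold change of the double mutant over the Dis3L2 mutant minus that of the Tailor mutant over w1118. It was called where its adjusted p was at most 0.05 by edgeR's quasi-likelihood test. The first contrast is part of this value, and most features below were named for their call in that contrast. Large interactions therefore in part restate that choice. Differences between the parent chromosomes of the groups cannot be told apart from the mutations in these values. Each group had 2 libraries, and the number of interactions called ranged from 67 to 1915 when 1 library was left out.

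Positive interactions were found for long noncoding and uncharacterised genes that were nearly unread in the Dis3L2 mutant or read mainly in the double mutant. They were 8.17 for CR43453, 8.02 for CG7542, 7.17 for CR46039, 6.91 for CR43808, 5.24 for CR44534 and 5.13 for CG31205. The odorant receptor gene Or22b had 7.39, the neuropeptide gene AstCC 4.72 and Nlg3 4.49. The Burdock copy FBti0019305 had 3.84 and the HeT-A copy FBti0102105 had 3.29. GstE10 had 2.50, GstE1 1.26 and Obp56i 1.32. Among germline genes the interaction was 1.31 for del, 1.03 for Tpl94D and 0.96 for topi. It was called for 2 of 26 piRNA pathway genes, 1 of 34 sperm chromatin and tail genes and 1 of 17 meiotic arrest genes. Of all features tested, 4.08% had an interaction called.

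On the 3L run around Dis3l2 the interaction was 1.91 for CG16940, which is Dis3l2 itself. It was 1.93 for Dic61B, 1.58 for Ptpmeg, 1.43 for fwd, 1.42 for Pdk1, 1.23 for ttm2 and 0.89 for Mtch. Without Dis3l2, the median level of the run was 92.7% of w1118 in the double mutant and 46.7% in the Dis3L2 mutant. The groups with the Dis3L2 mutation were thus not alike there, and whether these interactions come from the Tailor mutation was not tested.

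Negative interactions were largest for CG45072 at -12.75 and CR44572 at -11.22, both high in each single mutant. CR43451 had -9.57, mthl8 -8.65, the jockey copy FBti0020092 -8.50, CG11854 -8.27, CR44735 -7.26, CR45982 -7.22 and CR46108 -7.02. CG33773 had -5.53 and CG2736 -3.45. The small RNAs scaRNA:MeU2-48 and snoRNA:Psi18S-1854b had -4.65 and -3.86. Smaller values were -2.27 for Cyp310a1, -1.81 for CecA1, -1.81 for w, -1.33 for EbpIII and -0.98 for CG1943, the gene near Tailor.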

How the results depend on the processing

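The number of features called in the double mutant over the Dis3L2 mutant, 1289, ranged from 187 to 2880 with 1 library left out, that of features called higher from 93 to 1510 and that of features called lower from 94 to 1372. For the Tailor mutant over w1118 the range was 45 to 1109, and for the interaction 67 to 1915. A replicate block gave 696 features (372 higher, 324 lower), 152 for the Tailor mutant over w1118 and 220 for the interaction. The labels tie no samples by their numbers, and the correlation of deviations between samples of the same number was -0.04 for the double mutant with the Dis3L2 mutant and 0.30 for the Tailor mutant with w1118 (-0.30 to 0.30 over all pairs of groups), so with 2 pairs the numbers were not taken to pair the samples. A fit of the 4 libraries alone gave 2152 (1060 higher, 1092 lower) and 5 for the Tailor mutant over w1118. DESeq2 gave 1754, and 498 and 1103 for the Tailor mutant over w1118 and the interaction. A 2-fold minimum left 436 higher. Alternatives chosen after seeing the data were the accessory gland covariate, with 934 and, for the Tailor mutant over w1118, 572, and leaving out both Dis3L2 mutant replicate 1 and double mutant replicate 2, the library of each group with more ribosomal RNA. Leaving out these libraries left 0 calls for the total, higher and lower counts by edgeR, with 1792 features at an unadjusted p under 0.05, and with 1 library a group both were assumed to vary like the Tailor mutant and w1118. The same holds for the group left with 1 library in the ranges above. Other scalings, filters and leaving out small RNAs gave 1184 to 1573. No called value of a named gene changed direction under any of these alternatives. The cause of these differences was not tested. With 2 libraries a group, 2-fold changes may be missed, and how often this happens in weakly read genes was not tested.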

Other observations

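The Tsp42E genes on 2R, a cluster that encodes tetraspanins, proteins of the cell membrane, were mostly lower in the double mutant. They were chosen after their values were seen, because the lowest running median over 15 neighbouring genes, -0.80, was centred at Tsp42Ed. Of 17 annotated cluster genes, 15 were tested, 14 had a log2 fold change below 0, and the median was -1.04. Among the 15 tested, 5 were called lower and 0 higher, beside 4.27% lower and 4.77% higher of all features. Low values follow in part from that choice, so this is a description with no test. Tsp42Eh had 3.53 and 1.87 CPM in the double mutant and 11.3 and 14.0 CPM in the Dis3L2 mutant (log2 fold change -2.17 ± 0.30, adjusted p = 0.00825). Its call ended without Dis3L2 mutant replicate 2 (adjusted p = 0.0634). Tsp42Ed had 42.3 and 26.2 CPM in the double mutant and 91.2 and 86.6 CPM in the Dis3L2 mutant (-1.37 ± 0.23, adjusted p = 0.0161). In w1118 it had 44.0 and 51.4 CPM, so the Dis3L2 mutant was the high group. Its call ended without either Dis3L2 mutant library or double mutant replicate 2 (0.0657 to 0.0944).

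Cytoplasmic ribosomal protein genes had a median log2 fold change of -0.36, with 88 of 92 below 0. None was called by edgeR, and 23 had an unadjusted p under 0.05. Leaving out Tailor mutant replicate 1 or 2 gave 18 and 22 called, and leaving out any other library gave 0. Ribosomal RNA features had a median of -1.60 over 17, with 0 called by edgeR and 1 at an unadjusted p under 0.05. Without 1 library in turn that median ranged from -2.61 to 2.12.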
